A study of Sus scrofa with 6 samples.

Results

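MHC class II transcripts were compared between titled stages of ovarian follicles in the pig with the 16 probe sets annotated to SLA-DRA, SLA-DRB1, SLA-DQA1, SLA-DQB1, CD74 or B2M, out of 23999 probe sets on the array. These are 6 of 6765 genes that the annotation names. A probe set is the group of oligonucleotides that reports 1 transcript. A probe set was a member when its annotation gave 1 of these symbols and no other. SLA-DRB1 had 3 such probe sets, B2M had 9 and each of the other genes had 1. The tissue came from prepubertal gilts, which are young female pigs. Follicles had been isolated by their morphology and size as 3 stages, called primordial, middle and last, and total RNA of each sample was hybridised to 1 single-colour Affymetrix array. By their titles the 6 arrays were 2 biological replicates of each stage, and no treatment or genetic change is recorded for any of them. The sources used here do not say whether replicates were separate animals or how many follicles were pooled, so the p-values rest on a spread between samples that may be only technical. Stage names rest on the titles, because a description attached to all 6 samples calls each of them primordial.

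Antigen-presenting cells such as dendritic cells, macrophages and B cells load peptides from engulfed proteins onto MHC class II molecules and show them to helper T cells. In pigs the MHC is called the swine leukocyte antigen (SLA) complex. A class II molecule is a pair of chains, alpha and beta: SLA-DRA encodes the alpha chain and SLA-DRB1 a beta chain of the DR molecule, and SLA-DQA1 and SLA-DQB1 those of DQ. CD74, the invariant chain, occupies the peptide groove and escorts class II molecules to endosomes. B2M, beta-2 microglobulin, is the light chain of MHC class I molecules, which nearly all nucleated cells carry and which display peptides made inside the cell. The ovary holds resident macrophages and other leukocytes, mainly outside the follicle's granulosa layer.

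Order was read among the protein-coding genes of the RefSeq gene table of the pig assembly Sscrofa11.1, other entries left out. There SLA-DRB1, SLA-DQA1 and SLA-DQB1 are next to each other, and 1 other gene lies between SLA-DRA and SLA-DRB1. CD74 lies between TCOF1 and RPS14. The table has 2 entries named B2M, next to each other in this order. The platform annotation ties all 9 B2M probe sets to only 1 of them. Transcripts of near-identical SLA genes can bind the same probes, so the values of SLA probe sets may mix loci.

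Arrays were on a common scale, with a mean signal of 500.1 on each after the lowest and highest 2% of values were removed. Differences are given on the log2(signal + 16) scale as the later stage by title minus the earlier one, ± the standard error of limma's fit, with n = 2 arrays per stage. The added 16 understates the change of dim probe sets. Follicle markers did not follow the order of the stage names. The summed signal of 10 oocyte markers was 459 to 493 in primordial, 20027 to 21758 in middle and 882 in last follicles. That of 12 granulosa markers was 45378 to 58157, 13709 to 20607 and 61322 to 67194. Granulosa markers did not all move with their sum. Of 9 tested, 6 fell, 2 did not pass and AMH rose in middle against primordial arrays. At 1 probe set per gene 22.5% of all genes fell and 22.9% rose there. AMH averaged 235.8 in primordial, 1366.7 in middle and 109.7 in last follicles. Arrays titled primordial thus had the least summed oocyte signal, and a granulosa sum closer to the last than to the middle arrays. Whether the titles give the order of growth was not tested, so stage names below are titles only. Over the 14399 probe sets tested, the median difference was 0.22 between middle and primordial follicles, -0.07 between last and middle ones and 0.14 between last and primordial ones.

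The 4 class II chains and CD74 were brightest on the primordial arrays, 8.15- to 19.4-fold lower on the middle arrays, and uneven between the last arrays. SLA-DRA had a signal of 4449 and 6566.9 in primordial, 415.8 and 476.1 in middle and 379.8 and 2573.9 in last follicles. The primordial arrays stood above all others, and the last arrays enclosed the middle ones. SLA-DRB1 (probe set Ssc.210.1.S1_a_at) had 4658.3 and 6225.2, then 226.7 and 302, then 406.1 and 2043.5 in the same order of stages. Here the 3 stages did not overlap, with the middle arrays lowest. Last arrays lay above middle ones without overlap for 25.2% of all probe sets.

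The DQ chains had the same order of stage means. SLA-DQA1 had 7508.1 and 9609.9 in primordial, 808.4 and 900.8 in middle and 781.3 and 3369.8 in last follicles. SLA-DQB1 had 5565.3 and 8481.2, then 344 and 382.4, then 534.6 and 2640.2. Middle and last arrays overlapped for SLA-DQA1 and not for SLA-DQB1. CD74 had 2690.3 and 2219.1 in primordial, 319.8 and 254.9 in middle and 345.9 and 1320.8 in last follicles, with no overlap between stages.

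**Figure D1:**
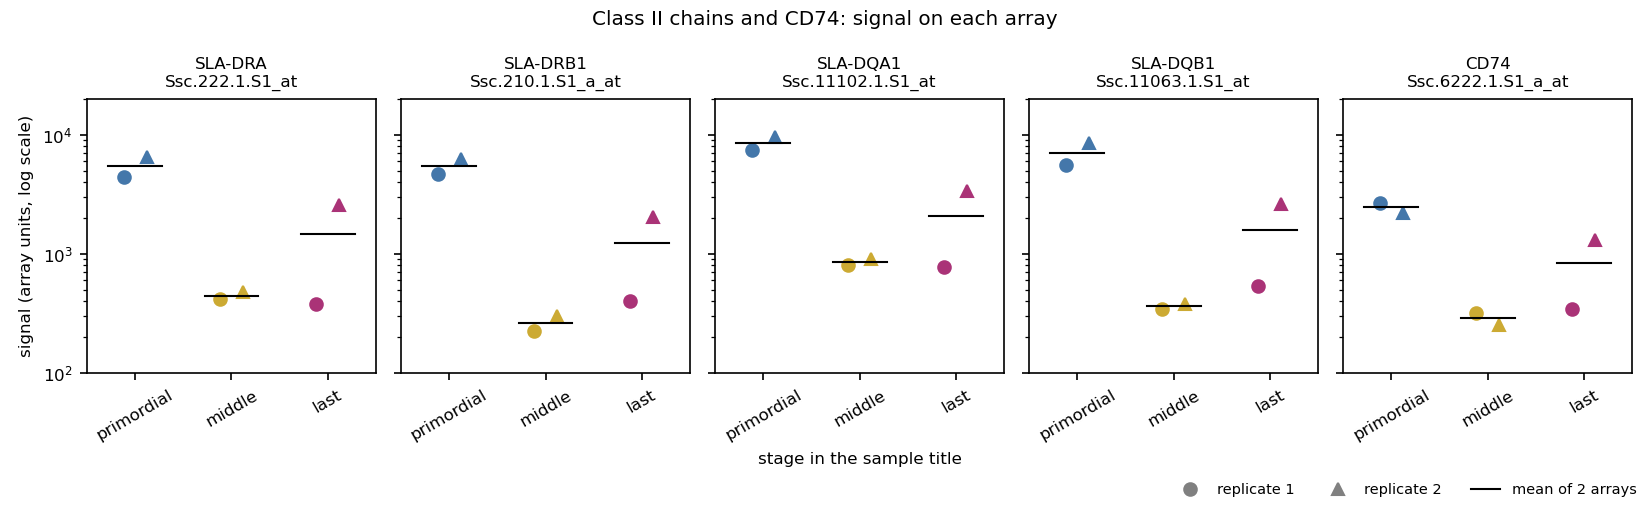
Signal (array units, log axis) of the 4 class II chains and CD74 on each of the 6 arrays, by stage; circles are replicate 1, triangles replicate 2 and bars the mean of both arrays. All 5 panels show high primordial arrays, low middle arrays, and a last replicate 2 that lies between them while last replicate 1 lies near the middle arrays.

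The 5 probe sets had similar profiles: Pearson's r of their log2 signals over the 6 arrays ranged from 0.977 to 0.999 between pairs, a description of arrays they share. They differed in 1 detail. The 4 chains were brighter on replicate 2 than on replicate 1 in every stage, whereas CD74 was so only in the last stage, at 0.825 times the signal of replicate 1 in the primordial arrays and 0.797 times in the middle arrays.

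SLA-DRB1 had 2 further probe sets, both under the brightness filter described with the methods. Ssc.16211.1.A1_at read 37.5 and 31.7 in primordial, 77.8 and 101.2 in middle and 51.9 and 21.3 in last follicles. Ssc.16211.1.S1_at read from 2.4 to 23.5 over all arrays. In a fit without the filter neither passed in any comparison, and the middle minus primordial difference of Ssc.16211.1.A1_at was 1.05 ± 0.42 (limma adjusted p = 0.0936). The other 14 members were tested, and since none was under 216.5 on any array, each was above the filter's 91.3 in every stage.

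Middle follicles were compared with primordial ones as the first step in the order of the titles. All 5 class II and CD74 probe sets were lower in the middle arrays, with a median of -3.56, and limma's test called each of them. Over all probe sets 17.7% were called lower and 29.7% higher in this comparison. SLA-DRB1 had the largest difference of these 5, -4.28 ± 0.57 (adjusted p = 0.00038), a 19.4-fold lower level on this scale. SLA-DQB1 fell by 4.18 ± 0.57 (adjusted p = 0.00042) and SLA-DRA fell by 3.56 ± 0.67 (0.00224). SLA-DQA1 fell by 3.29 ± 0.52 (adjusted p = 0.000891) and CD74 fell by 3.03 ± 0.49 (0.000983), 8.15-fold lower. In all 15 alternative settings these 5 calls held, with adjusted p up to 0.0332. No array of 1 stage overlapped with the other for these 5, against 29.2% of all probe sets that were lower without overlap. Stromal fibroblast markers were higher in middle than in primordial arrays. The summed signal of 8 was 21098 to 35722 in middle, against 1088 to 1099 in primordial follicles, and 6 of 8 tested rose with a median of 3.89. Of 5 theca markers 3 rose and 2 did not pass. At 1 probe set per gene 22.9% of all genes rose in this comparison. Theca sums were 3134 to 3609 in middle, against 1710 to 1716 in primordial follicles, and reached 18183 to 20995 in last follicles. INSL3 carried the middle rise of the sum. INSL3 and LHCGR, singled out after their values had been seen, averaged 415.4 and 1109 in primordial and 2125.7 and 713.4 in middle follicles. Stromal sums were 20053 to 23190 in last follicles. Their part in the class II differences was not tested. The balance of all calls depends on scaling, since 62.7% were higher as deposited and 47.5% under median centring of the arrays.

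Last follicles were compared with middle ones as the second step in that order, and no class II or CD74 probe set passed here. The differences were 1.75 ± 0.57 for SLA-DRB1 (limma adjusted p = 0.0664), 1.68 ± 0.57 for SLA-DQB1 (0.0747) and 1.21 ± 0.49 for CD74 (0.121). SLA-DRA differed by 1.14 ± 0.67 (adjusted p = 0.273) and SLA-DQA1 by 0.92 ± 0.52 (0.255). All 5 point estimates were above 0, and the 95% interval for SLA-DRA ran from -0.36 to 2.63. Before adjustment the intervals of 3 of the 5 lay above 0: SLA-DRB1 (0.45 to 3.04), SLA-DQB1 (0.39 to 2.96) and CD74 (0.11 to 2.30). Of the probe sets tested 7.29% passed as higher and 9.94% as lower, with 42.3% of the calls higher as deposited and 54.8% with median centring.

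These differences depended largely on last replicate 2. Without it SLA-DRB1, SLA-DQB1 and CD74 were still above 0, but smaller, at 0.6, 0.54 and 0.26. Without last replicate 1 all 5 passed, at 1.96 for SLA-DQA1 to 2.89 for SLA-DRB1 (adjusted p = 0.000344 to 0.00113). Without last replicate 2 none did, and SLA-DRA and SLA-DQA1 changed sign, to -0.22 and -0.12. SLA-DRB1 and SLA-DQB1 also passed with the replicate number as a block (adjusted p = 0.0321 and 0.0392).

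Last follicles were compared with primordial ones to span the whole series. All 5 probe sets were lower in the last arrays, with a median of -2.42, where 13.4% of all probe sets were called lower and 19.8% higher. Of all calls here 59.7% were higher as deposited and 47.4% with median centring. SLA-DRB1 fell by 2.53 ± 0.57 (adjusted p = 0.00953), SLA-DQB1 fell by 2.51 ± 0.57 (0.00975) and SLA-DRA fell by 2.42 ± 0.67 (0.0217). SLA-DQA1 fell by 2.37 ± 0.52 (adjusted p = 0.00792) and CD74 fell by 1.82 ± 0.49 (0.019). Every last array lay below both primordial arrays for these 5, as did 27.9% of all probe sets. Only SLA-DQA1 kept its call in all 15 alternatives. SLA-DRA, SLA-DRB1, SLA-DQB1 and CD74 lost theirs without primordial replicate 2 (adjusted p = 0.108, 0.0562, 0.0624 and 0.0581), and SLA-DRA and CD74 also without primordial replicate 1 (0.0526 and 0.089). SLA-DRA lost it too without middle replicate 1 or 2 and in a fit of the 4 arrays compared (0.0526, 0.0534 and 0.0547). The difference of SLA-DRA was -3.78 without last replicate 2 and -1.07 without last replicate 1. The 3 comparisons share arrays and are not independent of each other.

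**Figure D2:**
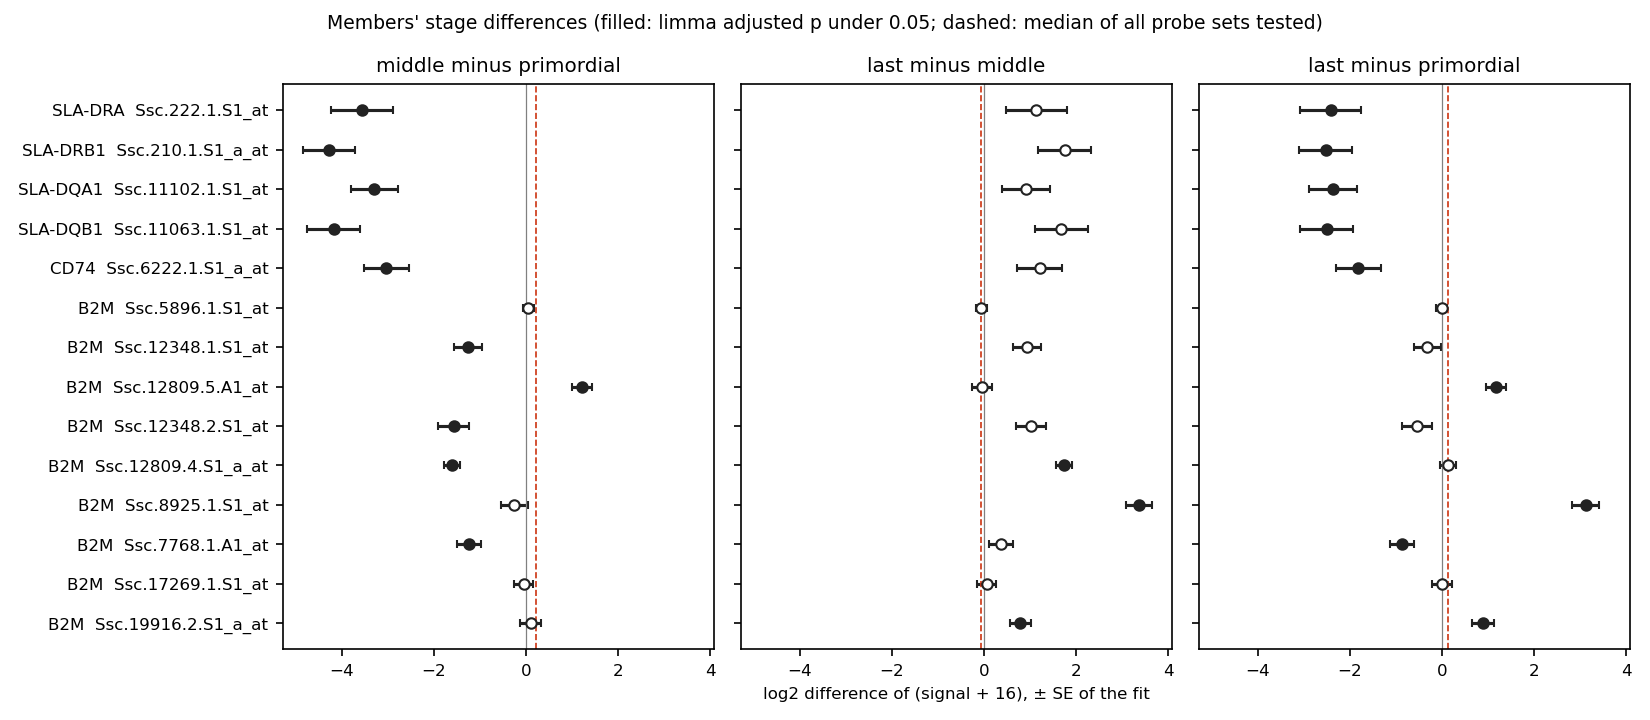
Difference in log2(signal + 16) between stages, ± the standard error of the fit, for the 14 tested probe sets; filled points passed limma's adjusted p of 0.05 and the dashed line is the median of all probe sets tested. The class II chains and CD74 are filled in the outer panels and open in the centre one, while the 9 B2M probe sets scatter on both sides of 0.

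The last arrays differed from each other far more than most probe sets did. The signal of last replicate 2 was 6.78 times that of last replicate 1 for SLA-DRA, 5.03 times for SLA-DRB1, 4.94 times for SLA-DQB1, 4.31 times for SLA-DQA1 and 3.82 times for CD74. Only 0.208% of the probe sets tested had a log2 gap at least as high as that of SLA-DRA, and 0.715% one as high as that of CD74. The median gap over all probe sets was 0.01.

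Most leukocyte markers were also higher in last replicate 2. The summed signal of 15 macrophage and monocyte markers was 19280 to 26195 in primordial, 3099 to 4091 in middle and 3603 to 10539 in last follicles, the higher value in last replicate 2. For 11 T and NK cell markers it was 1907 to 2828, 442 to 504 and 403 to 1136, and for 5 general leukocyte markers 11378 to 11532, 465 to 706 and 586 to 1642. All 12 tested macrophage markers, 7 of 7 T and NK markers and 4 of 4 general markers were higher in last replicate 2 than in last replicate 1. Their median log2 gaps were 1.29, 1.28 and 1.52, against 0.40 for 9 endothelial markers, -0.05 for 9 granulosa markers, -0.04 for 5 theca markers and -0.15 for 9 oocyte markers. Of 2 tested dendritic cell markers only 1 was higher, with a median gap of 0.06. The 1 tested B cell marker was higher, at 1.64. PTPRC, a general leukocyte marker under the filter, was lower, with a gap of -0.34. The part of leukocyte content in the class II values was not tested, and in bulk tissue fewer cells of a type and less RNA per cell cannot be told apart.

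**Figure D3:**
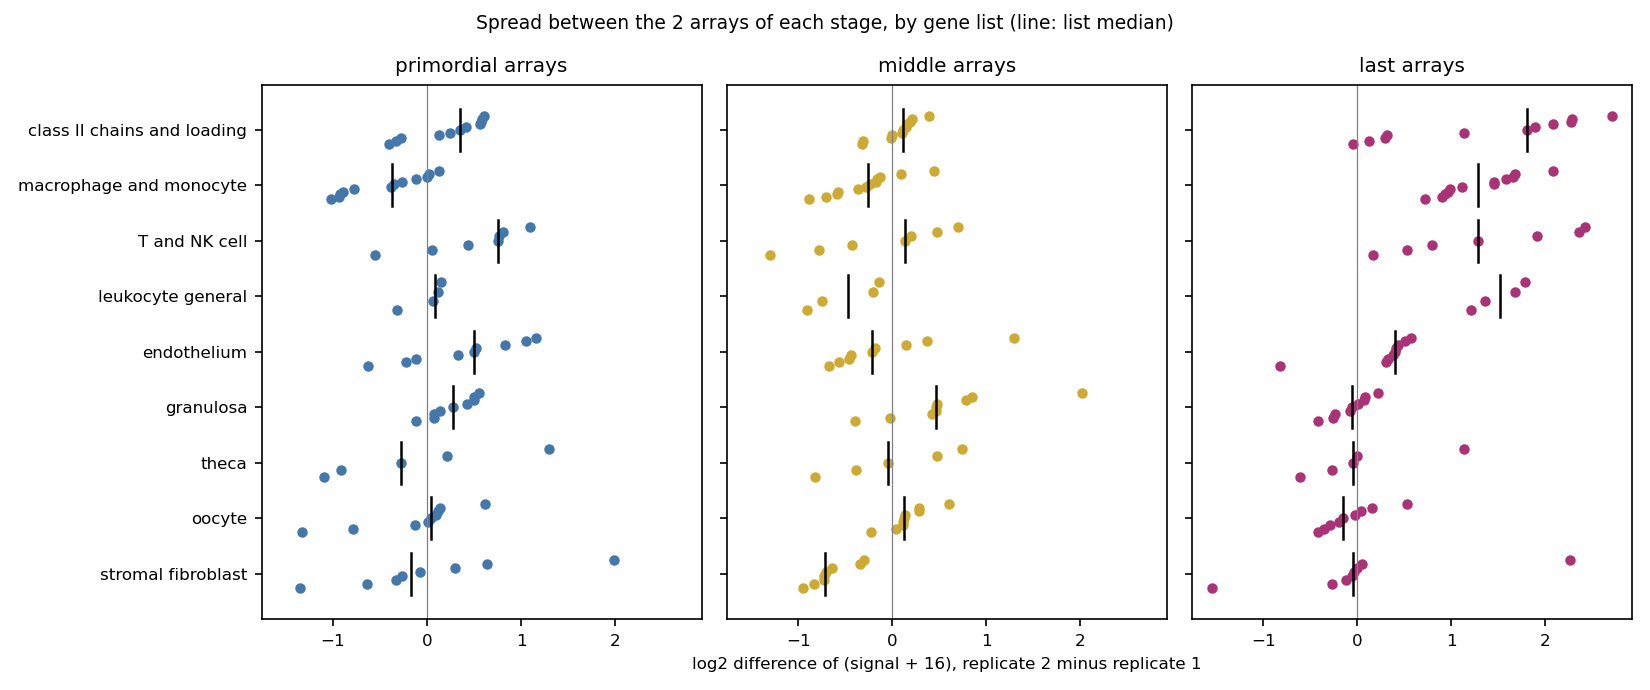
Log2 difference of (signal + 16), replicate 2 minus replicate 1, for each tested gene of 9 lists in each stage; lines are list medians. In the last arrays the class II, macrophage, T and NK, and general leukocyte lists lie to the right, with medians of 1.81, 1.29, 1.28 and 1.52, while granulosa, theca, oocyte and stromal fibroblast medians lie between -0.15 and -0.04.

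Of the tested macrophage and monocyte markers 11 of 12 fell in middle against primordial arrays and 9 of 12 in last against primordial arrays, where 22.5% and 15.8% of all genes fell at 1 probe set per gene. AIF1, a calcium-binding protein of macrophages, read 3644.7 and 2845.8 in primordial, 333.6 and 215.9 in middle and 423.2 and 1190.6 in last follicles. CD163, a scavenger receptor of macrophages, read 2602 and 1513.9, then 423.8 and 345.2, then 437.9 and 1231.3. CD3E, a subunit of the T cell receptor complex, was dimmer, at 413.3 and 565.1, then 65 and 96.7, then 32.1 and 165.3. CD79B, a subunit of the B cell receptor, read at most 33.8 on any array, CD14 at most 79.6 and PTPRC, the leukocyte common antigen, at most 56.5, so these defining markers gave little signal in any stage. PECAM1, found on endothelium and some leukocytes, averaged 931.1 in primordial, 227.1 in middle and 808 in last follicles. CDH5, an endothelial cadherin, had 143.2, 221 and 945.6. The summed signal of 11 endothelial markers was 2074 to 2333, 1963 to 2351 and 4196 to 4939. Of 9 tested, 1 rose and only PECAM1 fell in middle against primordial arrays. In last against primordial arrays 7 of 9 rose and 0 fell. Of all genes 22.9% rose in the first comparison and 17.2% in the second.

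Among 5426 other genes tested, the 5 nearest in profile to the mean of the class II chains and CD74 were LOC106504372, C4BPA, BLNK, LAPTM5 and AIF1. Nearness was the root mean square difference of centred log2 signals over the 6 arrays, from 0.24 to 0.37. LOC106504372, which the annotation gives together with SLA-DRB1 for some other probe sets, read 5442.6 and 6911.1 in primordial, 303.4 and 344.2 in middle and 558 and 2112 in last follicles. C4BPA encodes the alpha chain of the complement inhibitor C4b-binding protein. BLNK is a signalling adaptor of B cells and LAPTM5 a lysosomal membrane protein of blood cells. AIF1 and LAPTM5 are also on the macrophage list and BLNK on the B cell list. All 5 were brighter in last replicate 2 than in last replicate 1. They were picked for nearness over these same arrays, so this follows from the selection.

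The 9 B2M probe sets disagreed. Their middle minus primordial differences ran from -1.61 to 1.22 with a median of -0.25, and 4 were called lower, 1 higher and 4 not, beside 17.7% lower and 29.7% higher of all probe sets. They fell into a few patterns, described here after their values had been seen.

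The first group was lower in the middle than in the primordial arrays. Ssc.12348.1.S1_at read 21693.1 and 24607.1 in primordial, 7893.8 and 11685.8 in middle and 12778.3 and 26747.6 in last follicles. It fell by 1.26 ± 0.30 in middle against primordial arrays (limma adjusted p = 0.00795; 0.0944 without middle replicate 1). Ssc.12348.2.S1_at read 9535.3 and 9830.9, then 3009 and 3486.8, then 4244.4 and 10214.6, and fell by 1.57 ± 0.33 (adjusted p = 0.00384). In both probe sets last replicate 2 was above every primordial array and last replicate 1 between the primordial and middle arrays. For the class II chains and CD74, by contrast, last replicate 2 lay below both primordial arrays. Pearson's r with the mean class II profile over the 6 arrays was 0.89 and 0.95.

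Ssc.12809.4.S1_a_at was also lower in the middle arrays, with last arrays close to each other. It read 3183.6 and 3689.1 in primordial, 1080.5 and 1140.9 in middle and 3889 and 3610.2 in last follicles. It fell by 1.61 ± 0.17 in middle against primordial arrays (limma adjusted p = 0.000109) and rose by 1.74 ± 0.17 in last against middle arrays (0.000228). Ssc.7768.1.A1_at read 1905.1 and 2149, then 747.1 and 963.7, then 1416.8 and 851.8. It fell by 1.24 ± 0.26 in middle against primordial arrays (adjusted p = 0.00415). It also fell by 0.87 ± 0.26 in last against primordial arrays (0.0306), a call that 6 alternatives ended. Its last and middle arrays overlapped, with a difference of 0.37 ± 0.26 (limma adjusted p = 0.366).

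A second group was higher in the last arrays. Ssc.8925.1.S1_at read 606.6 and 329.5 in primordial, 342.8 and 408.9 in middle and 3580.7 and 4532.8 in last follicles. Both last arrays stood far above all others, and it rose by 3.37 ± 0.29 in last against middle arrays and by 3.12 ± 0.29 in last against primordial arrays (limma adjusted p = 0.000103 and 0.000132). Ssc.19916.2.S1_a_at read 216.7 and 241, then 216.5 and 278.2, then 449.7 and 424.4. It rose by 0.79 ± 0.23 in last against middle arrays (adjusted p = 0.0465, lost in 10 of 15 alternatives, in which it ranged from 0.0560 to 0.249) and by 0.89 ± 0.23 in last against primordial arrays (0.0182, lost in 4 of 15).

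Ssc.12809.5.A1_at was the only B2M probe set called higher in middle against primordial arrays. It read 5537.7 and 4991.1 in primordial, 15893 and 9438.1 in middle and 11863.6 and 11830.2 in last follicles. The rise was 1.22 ± 0.22 in middle and 1.17 ± 0.22 in last against primordial arrays (limma adjusted p = 0.00178 and 0.00387). It shares the stem of its name with Ssc.12809.4.S1_a_at, which fell in the first of these comparisons.

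The remaining B2M probe sets did not pass in any comparison. The brightest, Ssc.5896.1.S1_at, read between 23226.2 and 26814 on all 6 arrays and differed by 0.05 ± 0.12 in middle against primordial arrays (limma adjusted p = 0.762), with a 95% interval of -0.21 to 0.31. With each array centred on its median this difference was -0.19. The highest signal of any probe set was between 33783.6 and 47773.3 by array, so Ssc.5896.1.S1_at lay in the upper part of the scale. Whether a limit of the scale kept its values flat was not tested. Ssc.17269.1.S1_at read between 558.2 and 694.2 and differed by -0.05 ± 0.21 (adjusted p = 0.853). For neither did limma's F-test of any stage difference pass (adjusted p = 0.897 and 0.962), where it passed for 50.3% of all probe sets and 12 of 14 members. The genes nearest in profile to Ssc.5896.1.S1_at were RPS3A, EEF1B2, MKNK1, RPS27 and RPS19, of which the RPS genes encode ribosomal proteins.

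**Figure D4:**
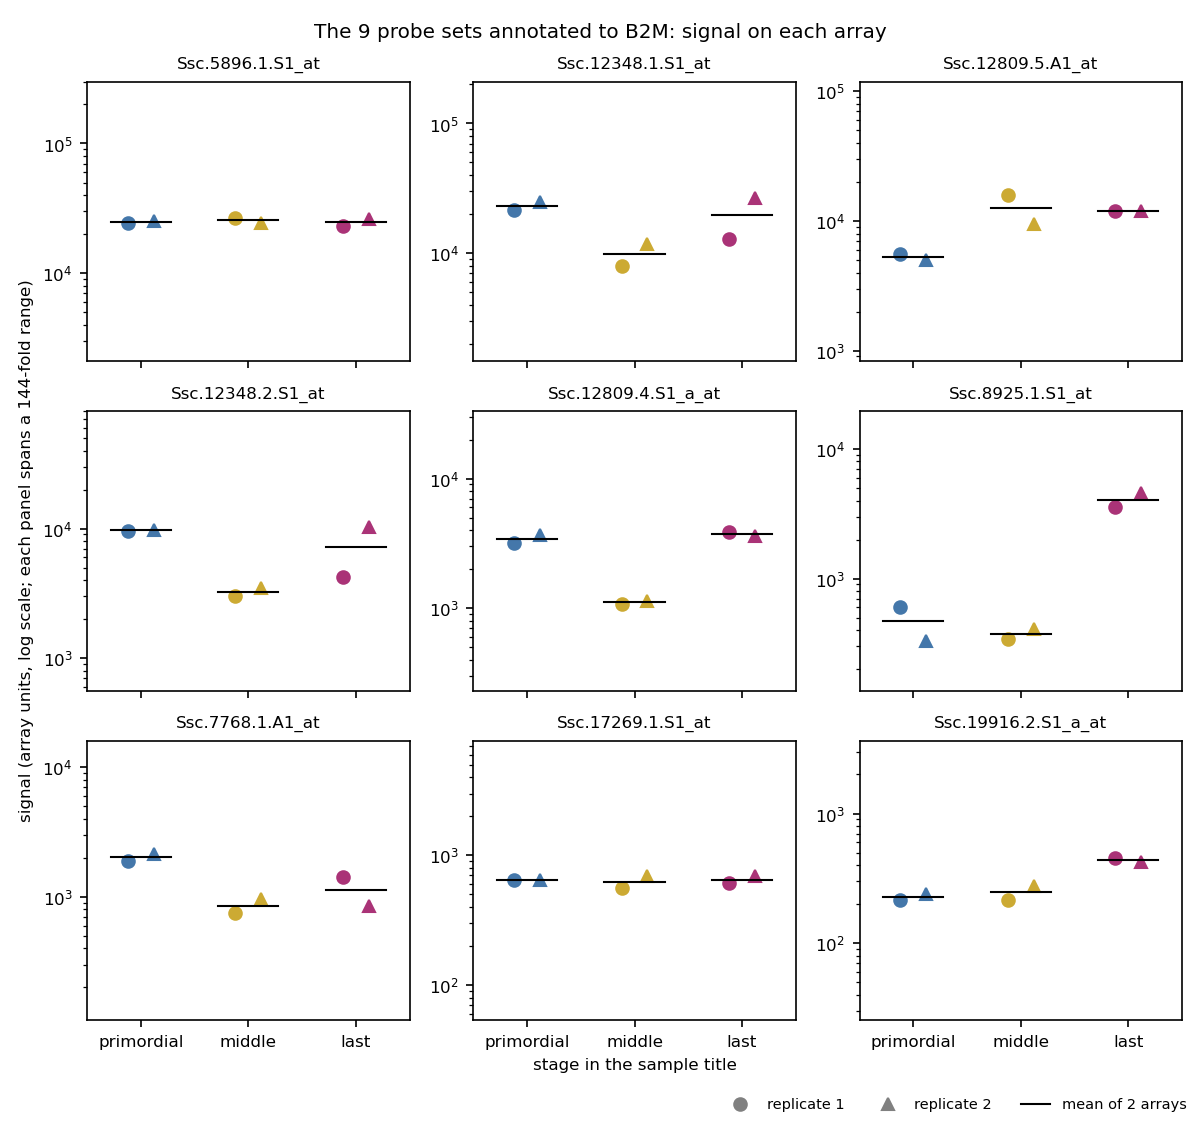
Signal (array units, log axis spanning the same fold range in each panel) of the 9 probe sets annotated to B2M on each of the 6 arrays; circles are replicate 1, triangles replicate 2 and bars the mean of both arrays. Some panels dip in the middle arrays, some are flat, and Ssc.8925.1.S1_at is high only in the last arrays, at 3580.7 and 4532.8.

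In last against middle arrays 3 of 9 B2M probe sets rose and 0 fell by limma's test, beside 7.29% and 9.94% of all probe sets. The 2 named Ssc.12348 missed the threshold at 0.94 ± 0.30 and 1.02 ± 0.33 (limma adjusted p = 0.0624 and 0.0613). In last against primordial arrays 3 were higher, 1 lower and 5 not called, beside 19.8% higher and 13.4% lower of all probe sets. The 2 named Ssc.12348 differed there by -0.32 ± 0.30 and -0.55 ± 0.33 (adjusted p = 0.447 and 0.223). Without last replicate 2 both were called lower, at -0.85 and -1.19, and without last replicate 1 they were at 0.21 and 0.08. The probe sequences were not used here, so which B2M probe sets match the B2M transcript was not tested.

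Of the other 6 tested genes on the class II list, SLA-DMB and SLA-DOA fell in middle against primordial arrays, SLA-DMA rose at its brightest probe set, and RFXANK, NFYB and NFYC did not pass. Of 11 tested genes of the class II list, the 5 members included, 7 fell and 1 rose in middle against primordial arrays with a median of -2.73. At 1 probe set per gene 22.5% of all 5432 genes were called lower and 22.9% higher, with a median of 0.06. In last against primordial arrays 5 of 11 fell and 1 rose, beside 15.8% lower and 17.2% higher of all genes, and in last against middle arrays 1 rose and 0 fell by limma's test, beside 8.80% higher and 7.23% lower. Without primordial replicate 2 only 2 of 11 were called in last against primordial arrays, 1 of them higher, and without last replicate 1 the number higher in last against middle arrays was 7. That number was 0 without middle replicate 1, middle replicate 2 or last replicate 2 and with the dimmest 60% left out, 2 with median centring or quantile normalization and 3 with the replicate block.

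SLA-DMB and SLA-DMA encode the chains of the DM molecule, which exchanges CD74 fragments for peptides. SLA-DMB read 773.5 and 847.6 in primordial, 123.4 and 95.6 in middle and 179.9 and 668.9 in last follicles, and fell by 2.73 ± 0.48 in middle against primordial arrays (limma adjusted p = 0.00155). SLA-DMA had 2 probe sets that disagreed. Ssc.13777.1.S1_at read 763.9 and 932.5, then 116.3 and 101.7, then 141.5 and 697.3, and fell by 2.79 ± 0.55 (adjusted p = 0.00305). The brighter Ssc.13777.2.S1_at, used in the list counts, read 2920.1 and 4347.6, then 7480.1 and 8063.5, then 7225.7 and 8840.9, and rose by 1.12 ± 0.20 (adjusted p = 0.00193).

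SLA-DOA, a chain of the DO molecule that restrains DM, read 140.5 and 219.2 in primordial, 12 and 16.5 in middle and 63.7 and 158.4 in last follicles. It fell by 2.67 ± 0.47 in middle against primordial arrays (limma adjusted p = 0.00153) and rose by 1.97 ± 0.47 in last against middle arrays (0.0198). The filter used the mean over all arrays, and the middle arrays of SLA-DOA were below its cut-off. The sizes of these differences thus depend on the added 16. CIITA, the coactivator that switches class II genes on, lay just under the filter, with 98.8 and 123 in primordial, 19.9 and 100.4 in middle and 66.2 and 116.2 in last follicles. Its primordial and middle arrays overlapped. RFXANK, NFYB and NFYC, subunits of the factors that bind class II promoters, did not pass in any comparison, with 0.01 ± 0.20, 0.23 ± 0.23 and 0.53 ± 0.22 in middle against primordial arrays (adjusted p = 0.98, 0.421 and 0.0704). CIITA was not tested, and it was singled out after its values had been seen.

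Probe sets that carry SLA-DRB1 together with LOC106504372 were not members. Their values were singled out after they had been seen. Ssc.210.7.S1_x_at averaged 1721 in primordial, 110.6 in middle and 605.5 in last follicles, and Ssc.210.6.S1_x_at had 647.9, 22.6 and 125.9. Both fell, with differences of -3.80 ± 0.49 and -4.11 ± 0.31 in middle against primordial arrays (limma adjusted p = 0.000313 and 2.02e-05). Unlike the member probe set, Ssc.210.6.S1_x_at read alike on the last arrays, at 131.2 and 120.7. It rose by 1.90 ± 0.31 in last against middle arrays (adjusted p = 0.0035). Its middle arrays were below the filter's cut-off, so the sizes of its differences depend on the added 16.

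Endosomal processing genes encode mostly enzymes that cut proteins and CD74 into peptides. They were lower in the middle arrays than in the primordial arrays in 9 of 10 cases, with a median of -2.60. In last against primordial arrays 8 of 10 were lower, with a median of -2.18, and in last against middle arrays 3 of 10 were higher, or 1 without middle replicate 1. Of all genes 22.5% were lower, 15.8% lower and 8.80% higher in these 3 comparisons. CTSZ, CTSH and CTSD, lysosomal cathepsins, fell, with differences of -4.39 ± 0.26, -4.12 ± 0.25 and -2.75 ± 0.21 in middle against primordial arrays (limma adjusted p = 6.32e-06, 7e-06 and 2.38e-05). LGMN, an asparaginyl endopeptidase, fell by 2.44 ± 0.23 (adjusted p = 5.66e-05). Its last arrays read 1759.6 and 1986.6, close to the middle arrays at 1703.7 and 2145.

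CTSS and IFI30 were singled out after their values had been seen, for their direct part in class II loading. CTSS, the cathepsin that trims CD74, read 14362.8 and 12168.7 in primordial, 2099.8 and 1658.3 in middle and 1909.9 and 4916.1 in last follicles. It fell by 2.81 ± 0.36 in middle against primordial arrays (limma adjusted p = 0.000296), and its other 2 probe sets fell too, at -4.39 and -1.62. IFI30, a thiol reductase of endosomes, read 7310.3 and 6158.2, then 149.4 and 213.8, then 819.8 and 2373.9. It fell by 5.11 ± 0.41 in middle against primordial arrays and rose by 2.86 ± 0.41 in last against middle arrays (adjusted p = 2.81e-05 and 0.0019), while a dim second probe set did not pass.

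Class I genes had smaller median differences than class II genes, a contrast that was not tested. Of 17 genes tested, the brightest B2M probe set included, 8 fell and 0 rose in middle against primordial arrays with a median of -0.77. In last against middle arrays 8 rose and 0 fell with a median of 0.63, and in last against primordial arrays 1 fell, FCGRT, the neonatal Fc receptor heavy chain, with a list median of -0.04. Of all genes 22.5% fell in the first comparison, 8.80% rose in the second and 15.8% fell in the third. These counts move with single arrays: 4 fell in middle against primordial arrays without middle replicate 1 and 5 without primordial replicate 1. In last against middle arrays 0 rose without middle replicate 1, and 2 rose without middle replicate 2, without last replicate 2 or with no intensity trend in limma. In last against primordial arrays 4 were called, all higher, without last replicate 1, and 3, all lower, without last replicate 2. SLA-2 and SLA-3, classical class I heavy chains, fell, with differences of -1.75 ± 0.36 and -3.28 ± 0.60 in middle against primordial arrays (limma adjusted p = 0.00367 and 0.00202). They rose by 1.49 ± 0.36 and 2.37 ± 0.60 in last against middle arrays (adjusted p = 0.0218 and 0.0268). SLA-3 read 4395.4 and 7230.3 in primordial, 407.5 and 787.7 in middle and 1385.4 and 6453.8 in last follicles, so last replicate 2 again exceeded last replicate 1.

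Of the nonclassical chains, SLA-6 and SLA-8 fell, with differences of -1.15 ± 0.31 and -0.77 ± 0.22 in middle against primordial arrays (limma adjusted p = 0.0126 and 0.0168), and SLA-7, near the filter, differed by -0.67 ± 0.37 (0.17). TAP1, a subunit of the peptide transporter, and TAPBP, tapasin, did not pass there, at -1.12 ± 0.53 and -0.57 ± 0.31 (adjusted p = 0.109 and 0.161). They rose by 1.77 ± 0.53 and 1.35 ± 0.31 in last against middle arrays (adjusted p = 0.0483 and 0.0181). The TAP1 values were 546.4 and 2342.8 on the last arrays, against 285.1 and 362.3 on the middle arrays. PSMB8, an immunoproteasome subunit, fell by 1.75 ± 0.51 in middle against primordial arrays and rose by 1.85 ± 0.51 in last against middle arrays (adjusted p = 0.0204 and 0.0372). PSMB10, PSME1, PSME2 and the chaperone CALR did not pass in any comparison. Nor did the brightest probe set of CANX, another chaperone, whereas its next brightest, Ssc.960.1.S1_at, fell by 0.44 ± 0.15 in middle against primordial arrays (limma adjusted p = 0.0384).

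Costimulation genes, whose products give T cells a second signal, were lower in the middle arrays in 6 of 7 cases with a median of -1.62, and in the last arrays in 5 of 7 cases with a median of -1.25, both against primordial arrays. Of all genes 22.5% and 15.8% were called lower in these comparisons, and the 5 of 7 became 3 without primordial replicate 1 or primordial replicate 2. ICAM1, an adhesion molecule, and CD83, a marker of mature dendritic cells, fell, with differences of -4.58 ± 0.23 and -4.55 ± 0.28 in middle against primordial arrays (limma adjusted p = 2.82e-06 and 7.43e-06). CD83 read 6022.2 and 5997.8 in primordial, 171.1 and 337.1 in middle and 1196.3 and 1232.7 in last follicles. Its last arrays were alike, in contrast to those of the class II chains. CD86 and CD40 fell, with differences of -3.66 ± 0.47 and -1.62 ± 0.27 (adjusted p = 0.000291 and 0.00131). The middle arrays of CD86, at 72.9 and 18.4, were below the filter's cut-off, so the size of its fall depends on the added 16.

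Interferon gamma is the main inducer of class II genes. Of 11 genes on its axis 6 fell and 1 rose in middle against primordial arrays, 2 rose and 2 fell in last against middle arrays, and 4 fell and 1 rose in last against primordial arrays. Of all genes 22.5% fell and 22.9% rose in the first of these comparisons, 8.80% rose and 7.23% fell in the second, and 15.8% fell and 17.2% rose in the third. The 7 calls of the first became 4 without primordial replicate 1, and the 4 of the second became 1 without middle replicate 1. The 5 calls of the third became 3 without primordial replicate 2 and 8 without last replicate 2. IRF1, an interferon-induced transcription factor, read 2126.8 and 2663 in primordial, 336.1 and 362.2 in middle and 1627.4 and 3235.6 in last follicles. It fell by 2.71 ± 0.30 in middle against primordial arrays and rose by 2.66 ± 0.30 in last against middle arrays (limma adjusted p = 0.000133 and 0.000489). IRF8, a transcription factor of myeloid and B cells, fell by 3.84 ± 0.40 in middle and fell by 3.47 ± 0.40 in last against primordial arrays (adjusted p = 9.96e-05 and 0.000389). JAK1, a kinase of interferon receptors, fell in these comparisons too, with differences of -1.09 ± 0.18 and -1.49 ± 0.18 (adjusted p = 0.001 and 0.000437). The probe sets of JAK2, a kinase of the same receptors, disagreed. The brighter fell by 1.28 ± 0.24 in last against middle arrays (limma adjusted p = 0.0074) and differed by 0.13 ± 0.24 in middle against primordial arrays (0.699). The dimmer, Ssc.324.3.S1_a_at, differed by 0.14 ± 0.33 and -1.59 ± 0.33 (adjusted p = 0.811 and 0.00356).

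IFNG, GBP1 and CXCL9 were singled out after their values had been seen. IFNG, interferon gamma itself, read 156.9 and 359.4 in primordial, 46 and 19.8 in middle and 44 and 64.3 in last follicles, and fell by 2.43 ± 0.48 in middle against primordial arrays (limma adjusted p = 0.00289). The middle and last arrays of IFNG were below the filter's cut-off, which applied to the mean over all arrays. The size of this fall thus depends on the added 16. GBP1 and CXCL9, an interferon-induced GTPase and a chemokine, read 239.9 and 111.6 on last replicate 1 and 2819.8 and 1612.5 on last replicate 2. Neither passed in last against middle arrays (adjusted p = 0.166 and 0.513).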

How the data were processed

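The authors deposited 1 linear intensity per probe set and array. The software was GCOS, per the submitters' processing notes, which name no version. In the deposited table the trimmed mean, without the lowest and highest 2% of values, was 500.1 on every array. Values were used as log2(signal + 16), without further normalization. Of 24123 probe sets, 124 controls were left out, and the dimmest 40% of the rest, with a mean over all arrays below 91.3, were not tested. This left 14399. limma 3.58.1 in R 4.3.3 (lmFit, eBayes with an intensity trend) was fitted to all 6 arrays without a replicate block, with 3 residual and 6.33 prior degrees of freedom. Tests were two-sided, with Benjamini-Hochberg adjustment over all probe sets tested and a threshold of 0.05. The fit was tried on simulated data with independent noise. These held no shift shared by many probe sets of 1 array, so the trial does not bear on such shifts. Figures used Python 3.11.15 and matplotlib 3.10.9.

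Symbols are those of the platform annotation, which can be old; 10069 probe sets had 1 symbol, 198 several and 13732 none. List counts take each gene's brightest probe set. The members and lists were chosen with earlier results of these data known. By rule all members, the tested genes of the 2 loading lists and 4 genes with the smallest F-test p from each other list could be named, with preset defining markers and the 5 genes nearest in profile. Same-numbered replicates did not deviate together over all probe sets tested (r of deviations 0.059, 0.032 and -0.048). This cannot tell whether same-numbered samples shared an animal or batch, because it measures only shifts common to many probe sets. Alternatives changed the scaling, pseudocount, filter, block, arrays fitted, trend and each replicate. The small number of arrays limits the precision.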

Additional observations from a re-analysis of the deposited data

How the results depend on the processing

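Of 630 comparisons of a member probe set's difference with an alternative setting, 559 kept direction and side of the threshold. Leaving out 1 array gave 9 to 10 called members in middle minus primordial, 2 to 9 in last minus middle, 3 to 10 in last minus primordial and 9 to 11 for any stage difference. Over all probe sets these ranges were 4356 to 7189, 727 to 2172, 2730 to 4297 and 4952 to 7354. The lowest counts came without middle replicate 1 (4356 and 727) and primordial replicate 2 (2730, and 3 members); without middle replicate 2, 1440 were called in last minus middle, and without primordial replicate 1, 2900 probe sets and 5 members in last minus primordial. The highest count in last minus middle, 9 members, came without last replicate 1. Where 1 array was left in a stage, it was assumed to vary like the others. For last minus middle, 5 members were called under median centring and 6 with the replicate block, against 3 as reported; the cause was not tested.

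Changes of sign were nearly all in B2M probe sets near 0. With median centring, Ssc.5896.1.S1_at was at -0.19 and Ssc.19916.2.S1_a_at at -0.14 in middle minus primordial, Ssc.5896.1.S1_at at 0.05 and Ssc.12809.5.A1_at at 0.06 in last minus middle, and Ssc.12809.4.S1_a_at at 0.00 and Ssc.17269.1.S1_at at -0.13 in last minus primordial. With quantile normalization, Ssc.19916.2.S1_a_at was at -0.24 in middle minus primordial, and Ssc.5896.1.S1_at at 0.04 in last minus middle; in last minus primordial it was at 0.07 and Ssc.17269.1.S1_at at -0.07. Without primordial replicate 1, Ssc.8925.1.S1_at was at 0.18 in middle minus primordial, and without primordial replicate 2, Ssc.5896.1.S1_at at 0.01 in last minus primordial. Without middle replicate 1, Ssc.5896.1.S1_at and Ssc.17269.1.S1_at were at -0.02 and 0.10 in middle minus primordial, and with Ssc.12809.5.A1_at at 0.01, -0.10 and 0.33 in last minus middle. Without middle replicate 2, Ssc.19916.2.S1_a_at was at -0.07 in middle minus primordial. Without last replicate 1, Ssc.5896.1.S1_at was at 0.03 in last minus middle. It was at 0.08 in last minus primordial, where Ssc.12348.1.S1_at and Ssc.12348.2.S1_at were at 0.21 and 0.08. Without last replicate 2, SLA-DRA, SLA-DQA1 and Ssc.17269.1.S1_at were at -0.22, -0.12 and -0.03 in last minus middle, and Ssc.17269.1.S1_at at -0.08 in last minus primordial. Among the opposite ends of these leave-one-out ranges were 0.11 for Ssc.5896.1.S1_at, -0.67 for Ssc.8925.1.S1_at, -0.21 for Ssc.17269.1.S1_at and 0.27 for Ssc.19916.2.S1_a_at between middle and primordial. In last minus middle they were 2.49 for SLA-DRA, 1.96 for SLA-DQA1 and -0.42 for Ssc.12809.5.A1_at. In last minus primordial they were -0.85 for Ssc.12348.1.S1_at, -1.19 for Ssc.12348.2.S1_at and 0.09 for Ssc.17269.1.S1_at.

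With the replicate block, 6601, 2279 and 4532 probe sets were called in the 3 comparisons in their order above, and among members SLA-DRB1, SLA-DQB1, Ssc.12348.1.S1_at and Ssc.12348.2.S1_at gained and Ssc.19916.2.S1_a_at lost a call in last minus middle (adjusted p = 0.0321, 0.0392, 0.0172, 0.0438 and 0.0584 by limma). It changed no other member's call.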
